A study of Chlorocebus sabaeus with 45 samples.

Results

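Whole blood of 15 juvenile male vervet monkeys (Chlorocebus sabaeus) was compared between day 14 and day 3 of individual quarantine housing. The comparison used 30 of the 45 libraries of the series, 15 from day 3 and 15 from day 14, and each day 14 library was set against the day 3 library of the same animal by the animal number in the labels. The monkeys were wild-born on St. Kitts, came from different troops, and were moved to the facility on day 0. On both days they were housed alone, were sedated with dexmedetomidine and midazolam, and had blood drawn into tubes that stabilise RNA, so that housing and sedation were the same and the time since capture differed. All of the later samples came from quarantined animals and no unstressed animals were followed in parallel, so time in quarantine, age and repeated sedation and bleeding cannot be told apart. The labels give the later day as 14, whereas the series' design text gives 15. Samples of day 0, drawn at capture with ketamine and xylazine as anesthetics, are given only as values beside the others, with no test.

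Whole blood RNA comes from circulating white cells, from platelets, which carry RNA of their parent megakaryocytes, and from reticulocytes, the young red cells that still hold RNA. Reticulocytes enter the blood when the marrow makes red cells, and their RNA is dominated by genes for hemoglobin, heme and the clearance of organelles. White cells are told apart by genes of their own, such as receptors of B and T cells or granule proteins of neutrophils. Fewer cells of a type and less RNA per cell cannot be told apart in these bulk samples.

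The deposited values are FPKM, fragments per gene adjusted for the length of the gene and the fragment total of its library. Levels are given here as scaled FPKM, the FPKM divided by the library's TMM factor (trimmed mean of M values, which aligns the typical gene between libraries). A gene was called at an adjusted p-value under 0.05 in limma, fitted to log2(scaled FPKM + 0.1) with the animal as a block, and log2FC is day 14 minus day 3 on that scale. Between 13216275 and 31469332 fragments fell on genes per library, and a difference of this total between the days was not detected (two-sided exact sign-flip permutation test over 15 animals, p = 0.944). The day 14 library of animal 4 held fragments on 31402 genes and the day 3 library of animal 8 on 26032 genes, whereas the other 28 libraries held fragments on 20008 to 23345. Results are therefore also given without animals 4 and 8, a choice made after the values were seen. Hepatocyte, muscle and endothelial marker genes summed to at most 3.38 CPM (the fragments of a gene scaled by the library total, without length) in any of the 30 libraries, and epithelial markers to at most 7.94 CPM. All marker sums, here and below, were also divided by the library's TMM factor, whereas CPM of single genes was not. The fibroblast collagens reached 35.9 CPM in 1 day 14 library.

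Of 18753 tested genes, 4854 were called (25.9%), with 2267 up-regulated (12.1%) and 2587 down-regulated (13.8%) from day 3 to day 14. A change of at least 2-fold was called for 438 up-regulated genes (2.34%) and 69 down-regulated genes (0.368%). The called changes were mostly small: their median absolute log2FC was 0.49, and they ran from −2.46 to 2.51. In 15 of 15 animals 137 genes were higher and 80 genes were lower on day 14, and all of them were called. The values of the 2 groups of 15 samples overlapped for every tested gene. Without animals 4 and 8, 3347 genes were called, 1677 up and 1670 down. Leaving out animal 8 alone gave 268 rises of at least 2-fold, and leaving out animal 9 alone gave 1639 down-regulated genes. How many genes rose and how many fell moved with the scaling: the median log2FC of all tested genes was −0.05 with TMM and −0.35 without it, where 965 genes were up and 8246 down. Median-of-ratios scaling, in turn, gave 2596 up and 2016 down. The values here are therefore changes relative to the typical gene.

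RNA integrity moved with the day, being higher on average on day 14, and entering each sample's RNA integrity number as a covariate left 914 called genes (528 up and 386 down). The direction of all 4854 called genes was the same in that fit. Their median absolute log2FC went from 0.49 to 0.44 and their median standard error from 0.13 to 0.16. Called genes also differed in length, with a median of 1581 bases for the up-regulated and 3633 bases for the down-regulated genes against 2644 bases over all tested genes. Among changes of at least 2-fold the medians were 1616 bases for the rises and 1606 bases for the falls. The part of RNA quality and gene length in the changes below was not tested, and the number of calls with the covariate is given for the main groups.

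The bar plot of called members shows how 37 groups of genes divided between the directions. The share of members called in either direction was under the 25.9% of all tested genes in the interferon, immediate early, stem cell, basophil, growth arrest, mature neutrophil, cytokine, T cell, circadian clock and antioxidant lists, and the counts of these lists are given as a description.

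**Figure D1:**
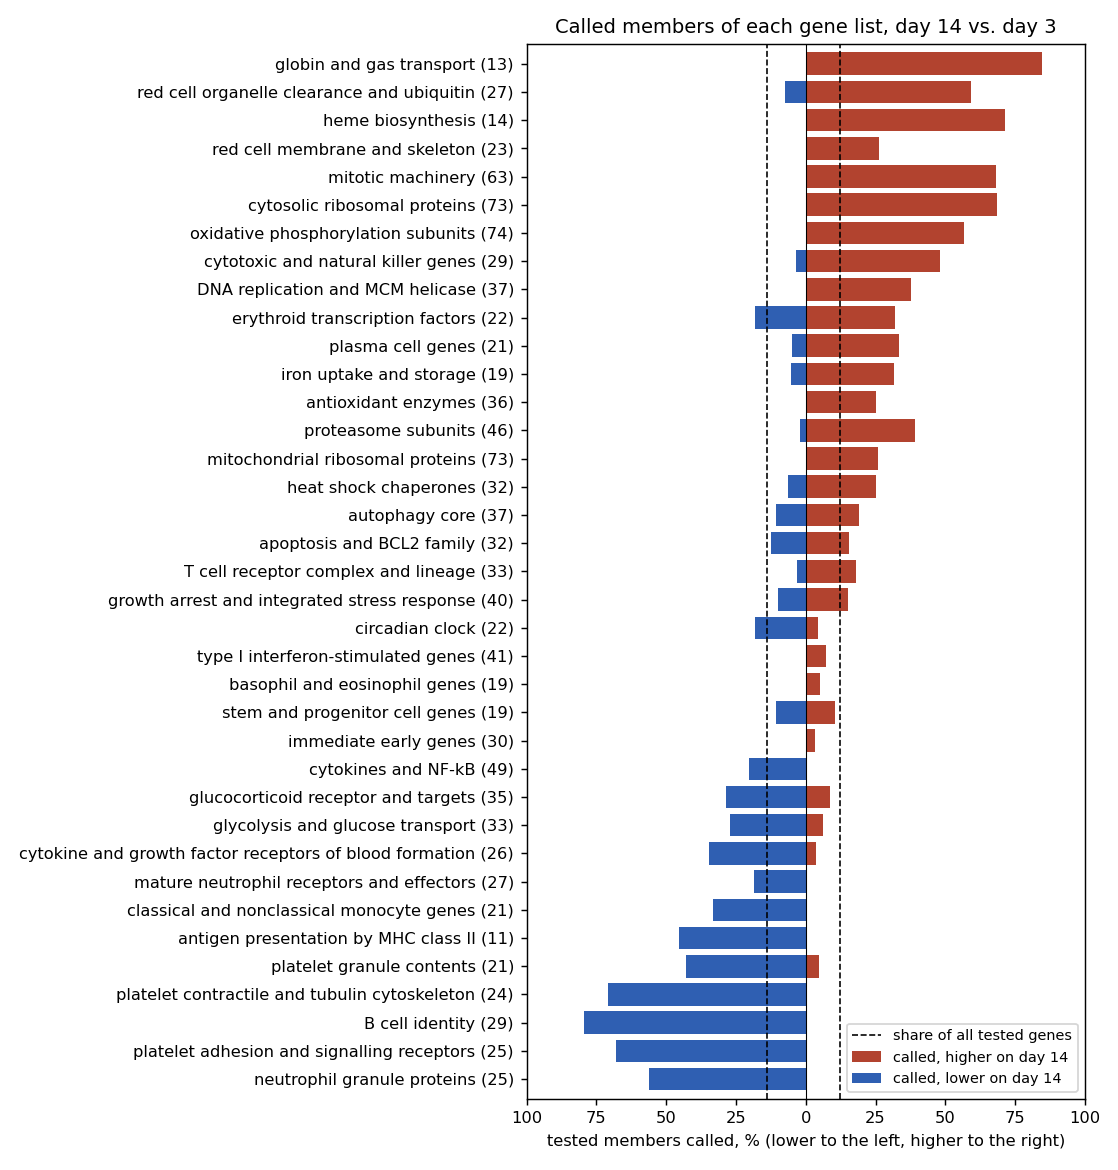
Share of the tested members of each gene list that was called higher (red, to the right) or lower (blue, to the left) on day 14 vs. day 3, in percent of the tested members, whose number stands in parentheses; the dashed lines mark the 12.1% and 13.8% of all tested genes. Globin, heme, mitotic and ribosomal protein lists reach farthest to the right, and the B cell, platelet cytoskeleton, platelet receptor and neutrophil granule lists farthest to the left.

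Genes of red cell production had the largest gains. Hemoglobin is built from globin chains and heme, and heme synthesis starts with ALAS2, the erythroid form of its first enzyme, and ends with FECH, which inserts the iron. Of 14 tested heme biosynthesis genes, 10 were up-regulated and 0 down-regulated, with a median log2FC of 0.87. ALAS2 lay between 3040 and 32488 scaled FPKM on day 3 (median 12012) and between 5741 and 54765 on day 14 (median 29734), with a log2FC of 1.06 (SE 0.33, limma adjusted p = 0.0265), and was higher in 11 of 15 animals. It gained more fragments than any other gene, 16999 CPM on average, and its median on day 0 had been 4089 scaled FPKM. FECH went from a median of 1343 (346 to 4276) to 2836 (1003 to 10191) scaled FPKM, with a log2FC of 1.25 (SE 0.35, adjusted p = 0.0185, higher in 12 of 15 animals). SLC25A38, the mitochondrial carrier that supplies glycine for heme, had a median of 126 scaled FPKM on day 3 and 328 on day 14 (log2FC 1.24, adjusted p = 0.00387) and was higher in 14 animals. SLC25A38 was the 1 heme gene called with the RNA integrity number, where the median of the list was 0.79. Without animals 4 and 8, 6 of the 14 were called, and leaving out animal 3, 9, 12 or 14 alone left 5 or 6.

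Of 13 tested genes of globins and gas transport, 11 were up-regulated, all by at least 2-fold, and 0 were down-regulated. The libraries had been depleted of globin RNA, so the globin levels are what the depletion left, and the globin genes are near copies of each other whose fragments may be shared. HBG, the gamma chain of fetal hemoglobin (named through RefSeq), lay between 1.73 and 346 scaled FPKM on day 3 (median 49.8) and between 5.5 and 8376 on day 14 (median 167). Its log2FC of 2.41 (SE 0.49, adjusted p = 0.00439) was the largest rise among the genes with a symbol, and it was higher in 13 of 15 animals. The spread on day 14 was wide: animal 14 had 8376 scaled FPKM, animal 15 had 2265 and animal 9 had 1648, whereas animal 13 had 5.5. HBB, the beta chain, showed a log2FC of 1.64 (SE 0.39, adjusted p = 0.00876) with day 14 values of 11571 in animal 14 and 19194 in animal 15 and a median of 378. HBA, HBM, HBQ1 and HBZ were called as well, with log2FC of 1.29, 1.27, 1.25 and 1.33. BPGM, whose product lowers the oxygen affinity of hemoglobin, rose from a median of 456 to 1318 scaled FPKM (log2FC 1.55, adjusted p = 0.00532, higher in 14 animals), and AHSP, a chaperone of free alpha chains, from 100 to 555 (log2FC 1.55, adjusted p = 0.0108). The RNA integrity number as a covariate left 1 of the 13 called (median log2FC 1.11), and 9 were called without animals 4 and 8.

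The organelle clearance and ubiquitin list, which holds the machinery by which a reticulocyte removes its mitochondria and most of its proteins, had 16 of 27 tested members up and 2 down (median log2FC 0.96). BNIP3L, the mitophagy receptor of reticulocytes, lay between 320 and 7621 scaled FPKM on day 3 (median 1405) and between 1617 and 12215 on day 14 (median 4495), with a log2FC of 1.56 (SE 0.31, adjusted p = 0.00408). UBB, a ubiquitin gene, had the second largest gain, 9507 CPM, and went from a median of 6807 to 22467 scaled FPKM (log2FC 1.54, adjusted p = 0.00497). Both were higher in at least 13 of the 15 animals. The fit with the RNA integrity number called 3 of the 27 up and 0 down, with adjusted p = 0.0467 for BNIP3L and 0.0495 for UBB. RIOK3, a kinase that is abundant in maturing red cells, had a log2FC of 1.36 (adjusted p = 0.0111, and 0.0945 with the RNA integrity number). The 2 down-regulated members, ATG9A (−0.40) and PARK2 (−0.40), take part in autophagy and mitophagy in cells of many kinds.

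Of 23 tested genes of the red cell membrane and its skeleton, 6 were up and 0 down (median log2FC 0.65), among them ADD2 (1.20) and TMOD1 (1.15), which cap and stabilise the spectrin-actin network. None of the 23 was called with the RNA integrity number, at the same median of 0.65. Leaving out animal 6 raised the count to 10. Among 22 erythroid transcription factors 7 were up and 4 down, with a median log2FC of 0.28 that became −0.07 without TMM. HEMGN, a nuclear regulator of erythroid cells, lay between 11.2 and 535 scaled FPKM on day 3 (median 59.7) and between 62.3 and 1224 on day 14 (median 226), and was higher in 15 of 15 animals (log2FC 1.85, SE 0.32, adjusted p = 0.00208). TFDP2, a cell cycle partner of the E2F factors, had a log2FC of 1.59 and was also higher in all 15 animals, and KLF1, a master regulator of the erythroid lineage, had a log2FC of 1.20 (adjusted p = 0.021, 12 animals). BCL11A, a repressor of the gamma globin genes that B cells also express, was lower in 13 of 15 animals (log2FC −0.67, SE 0.14, adjusted p = 0.00489). IKZF1, a lymphoid factor on the same list, was lower in 14 (log2FC −0.34, adjusted p = 0.00455), as was CBFA2T3 in 11 (log2FC −0.57). Leaving out any 1 of animals 2, 3, 8, 9 or 14, or both animals 4 and 8, left 2 falls, and the latter left 4 rises. With the RNA integrity number 2 were up and 2 down.

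Of 19 iron genes 6 were up and 1 was down (median log2FC 0.22, and −0.13 without TMM, where 5 were up and 6 down). BLVRB, a reductase that is abundant in red cells, had a log2FC of 1.24, FTL, the ferritin light chain that stores iron, 1.11, and NCOA4, the receptor that delivers ferritin for breakdown, 1.09. ACO1, which in its iron-free form regulates iron genes, was the 1 member that fell (−0.23, adjusted p = 0.0287), and it was no longer called without animal 1, 2, 9 or 12 or without animals 4 and 8. Without animal 11 there were 2 falls. None of the 19 was called with the RNA integrity number. Antioxidant enzymes had 9 of 36 up and 0 down (median log2FC 0.20, −0.15 without TMM, where 4 were up and 13 down), led by GPX1, the glutathione peroxidase of red cells, which went from a median of 6990 to 18636 scaled FPKM (log2FC 1.26, adjusted p = 0.0268). Without animal 3, 9 or 14, or without both animals 4 and 8, this count was 4 or 5, and it was 2 with the RNA integrity number. BCL2L1, the survival factor of maturing erythroid cells, had a log2FC of 0.89 (adjusted p = 0.0475) and was higher in 9 of 15 animals.

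These gains were uneven between animals, as the plot of list medians in each animal shows. The median log2 difference of the heme genes was 3.12 in animal 8, 2.21 in animal 14, 1.91 in animal 12, 1.65 in animal 9, 1.65 in animal 15 and 1.55 in animal 3. It lay between −0.18 and 0.50 in the other 9 animals. The red cell membrane list gave the same 6 animals above 1.1 (1.14 to 3.46) and the remaining 9 between −0.64 and 0.31. Animal 8 had the lowest day 3 value of ALAS2, 3040 scaled FPKM, and the highest on day 14, 54765. Animal 7 had the highest day 3 value, 32488, and was at 33243 on day 14. In animal 13 ALAS2 went from 14342 to 7335, a log2 difference of −0.97. The standard deviation of the animals' medians was 1.06 for the heme list and 1.26 for the membrane list, against 0.34 for the B cell list. The 6 markers of red cell precursors, ALAS2, AHSP and HEMGN among them, summed to a median of 29077 CPM on day 3 (7109 to 80337) and 68726 on day 14 (13667 to 127837), and their sum was higher in 12 of 15 animals.

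**Figure D2:**
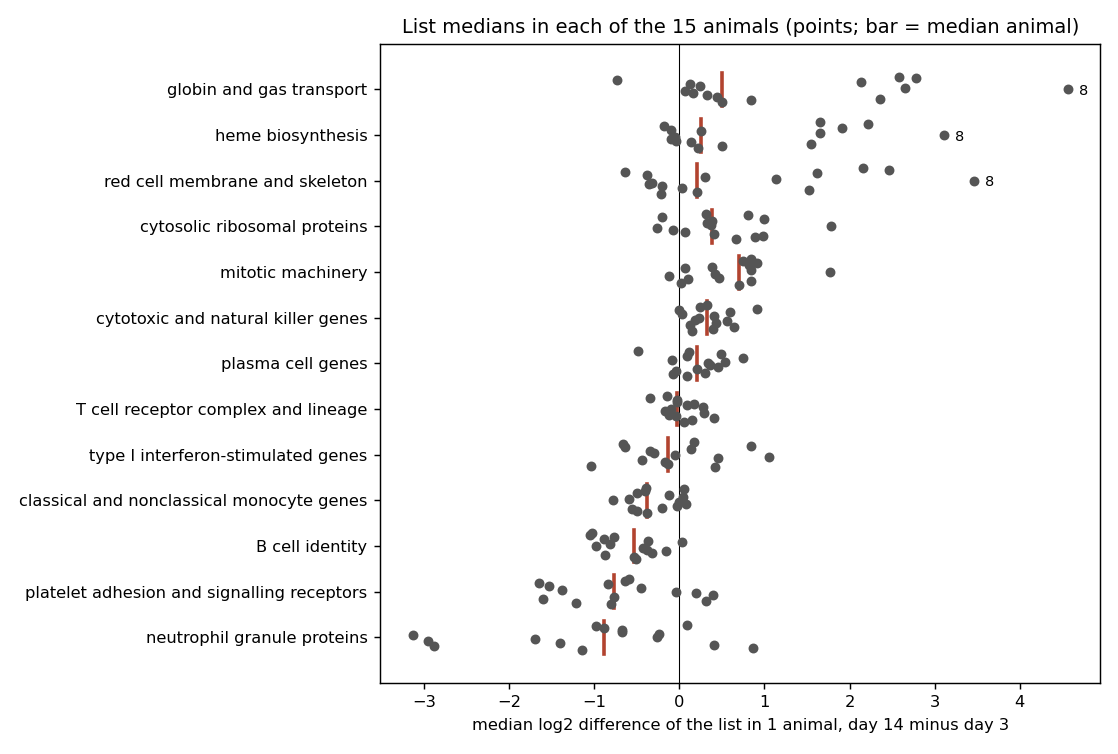
Median log2 difference (day 14 minus day 3) of the tested genes of 13 lists, with 1 point for each of the 15 animals and a red bar at the median animal. The 3 red cell lists at the top spread from below 0 to between 3.12 and 4.57 in animal 8, whereas the B cell list lies between −1.05 and 0.03.

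The most abundant genes took more of each library on day 14. The 20 most abundant genes of a library held 14.4% ± 5.48 (SD, n = 15) of its fragments on day 3 and 23.1% ± 6.6 on day 14, and the share was higher in 13 of 15 animals (two-sided exact sign-flip permutation test, p = 5.49e-04, adjusted p = 0.0022 over 4 measures of the libraries). The TMM factor was lower on day 14 in 12 of 15 animals (same test, p = 0.00513, adjusted p = 0.0103). The 10 genes that gained most in CPM were ALAS2, UBB, BNIP3L, NCOA4, FECH, FTL, GPX1, FAM46C, OAZ1 and TPT1. OAZ1, which limits polyamine synthesis, had a log2FC of 1.24, TPT1, a growth-related protein whose RNA is abundant in most cells, 1.40, and FAM46C, a poly(A) polymerase of plasma and erythroid cells, 1.08.

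**Figure D3:**
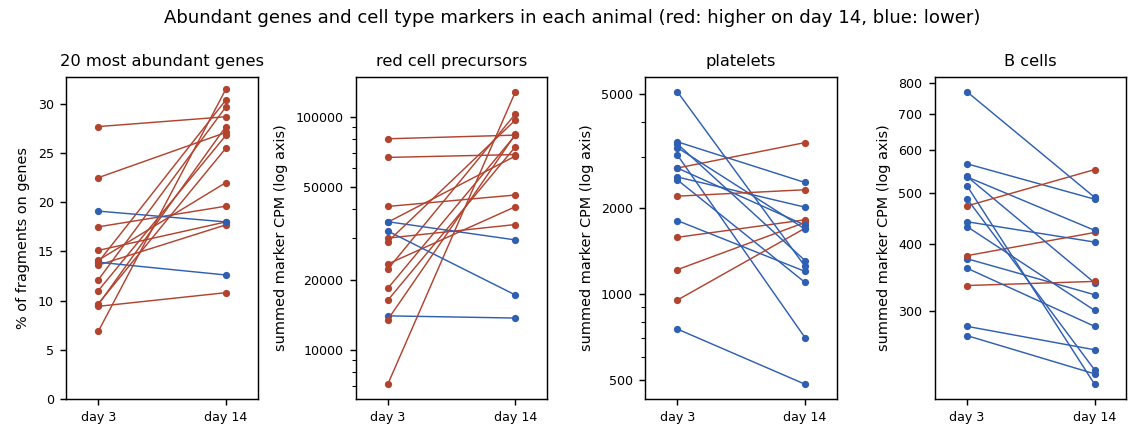
Share of fragments in the 20 most abundant genes of each library (percent, axis from 0) and summed CPM, divided by the TMM factor, of the markers of red cell precursors, platelets and B cells (log axes), with 1 line per animal from day 3 to day 14. The share and the red cell precursor markers were higher on day 14 in 13 and 12 animals, the platelet markers in 5 and the B cell markers in 3.

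Platelets bind fibrinogen through the integrin of ITGA2B and ITGB3, and von Willebrand factor through the GP1BA, GP1BB and GP9 complex. Of 25 tested platelet adhesion and signalling receptors, 17 were down-regulated and 0 up-regulated, with a median log2FC of −0.70. ITGB3 lay between 14.4 and 152 scaled FPKM on day 3 (median 61) and between 7.96 and 52.3 on day 14 (median 24.6), and was lower in 15 of 15 animals (log2FC −1.58, SE 0.26, adjusted p = 0.00207). Its partner ITGA2B went from a median of 71.8 (20.1 to 154) to 26.2 (10 to 56.5) and was lower in 15 of 15 animals (log2FC −1.40, SE 0.24, adjusted p = 0.00217), although in animal 3 it stood at 56.7 and 56.5. The day 0 medians had been 16 for ITGB3 and 15.7 for ITGA2B, so that day 3 held the highest of the 3 medians of both. P2RX1, an ATP-gated channel of platelets, had a log2FC of −1.13 (adjusted p = 0.00311, lower in 13 animals). Of the receptors, 9 were called down with the RNA integrity number, those of ITGB3, ITGA2B and P2RX1 among them (adjusted p = 0.0285, 0.0292 and 0.0309), and without animals 4 and 8 there were 14.

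Among platelet granule contents 9 of 21 were down and 1 was up (median log2FC −0.37). VWF, the carrier of factor VIII that tethers platelets, fell from a median of 1.62 (0.348 to 7.37) to 0.557 (0.205 to 1.57) scaled FPKM, was lower in 14 of 15 animals (log2FC −1.48, SE 0.30, adjusted p = 0.00419) and had a day 0 median of 0.353. NRGN (−0.98), a calmodulin-binding protein, fell as well. CCL5, the 1 member that rose (log2FC 0.49, adjusted p = 0.00441), is also made by cytotoxic lymphocytes. PPBP, the platelet marker with the highest level, was not called (log2FC −0.12, SE 0.22, adjusted p = 0.718). The contractile and tubulin cytoskeleton that shapes platelets had 17 of 24 down and 0 up (median log2FC −0.52). Of these 24, 5 were down with the RNA integrity number, and of the granule contents 2 were down and 1 up. TAGLN, the actin-binding protein transgelin, fell most, from a median of 9.23 (0.93 to 45.9) to 1.79 (0.73 to 4.16) scaled FPKM (log2FC −1.92, SE 0.35, adjusted p = 0.00247, lower in 14 animals). MYL9, the light chain of nonmuscle myosin (−0.98), and TLN1, talin, which activates integrins (−0.87), fell too. FLNA, filamin, was among the genes that lost most CPM (log2FC −0.60, adjusted p = 0.0134). The 5 platelet markers found by symbol had a summed median of 2561 CPM on day 3 (754 to 5081) and 1696 on day 14 (484 to 3376), and were higher on day 14 in 5 animals.

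Of 25 neutrophil granule proteins 14 were down and 0 up, with a median log2FC of −0.93, which was −1.73 with limma-voom on the recovered fragments. These proteins are made in marrow precursors of neutrophils and their RNA is low in mature cells. LTF, lactoferrin, lay between 0.774 and 353 scaled FPKM on day 3 (median 24.6) and between 0.236 and 15.6 on day 14 (median 3.42), with a log2FC of −2.24 (SE 0.53, adjusted p = 0.00821), and was lower in 13 of 15 animals. It was high on day 3 in animal 3 (353), animal 9 (144) and animal 6 (77.6), which stood at 7.26, 3.42 and 7.41 on day 14, while animals 2 and 15 were higher on day 14. DEFA1, an alpha defensin with near-identical gene copies, had a log2FC of −2.46 (SE 0.59, adjusted p = 0.00917), LCN2, which binds siderophores, −1.68, BPI, which kills Gram-negative bacteria, −1.66, and MMP8, a collagenase, −1.39. CRISP3, a secreted protein of the same granules, had −1.98 and MPO, the peroxidase of primary granules, −1.74. None of the 25 was called with the RNA integrity number, with a median log2FC of −0.71, and without animals 4 and 8 there were 14 falls. In the mature neutrophil list 5 of 27 were down and 0 up (median log2FC −0.25), led by C5AR1, the receptor of complement fragment C5a (−0.89, adjusted p = 0.00511), MGAM (−0.75) and FPR2, a formyl peptide receptor (−0.58). This count was 3 without any 1 of animals 2, 3, 9, 12, 13 or 14 and 10 without animal 7, and it was 0 with the RNA integrity number. Without TMM 17 of this list were down and 0 up, at a median log2FC of −0.60. The neutrophil markers summed to a median of 2397 CPM on day 3 (602 to 5250) and 1803 on day 14 (489 to 3242), and were higher in 5 animals on day 14.

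Of 21 tested monocyte genes, 7 were down and 0 up (median log2FC −0.28). VCAN, a proteoglycan of classical monocytes, lay between 50.6 and 151 scaled FPKM on day 3 (median 86) and between 25.7 and 96.3 on day 14 (median 53.6), and was lower in 15 of 15 animals (log2FC −0.65, SE 0.11, adjusted p = 0.00207, and 0.0309 with the RNA integrity number). CD163, the scavenger receptor that takes up hemoglobin bound to haptoglobin, went from 11.1 to 6.27 scaled FPKM in the median (log2FC −0.74, adjusted p = 0.00417, lower in 13 animals), and FCN1, a ficolin, from 180 to 129 (log2FC −0.64, adjusted p = 0.0154, and 0.117 with the RNA integrity number). The covariate left 2 of the 21 monocyte genes called down. The monocyte markers (CD14, CSF1R, FCN1 and VCAN) summed to a median of 1679 CPM on day 3 (1028 to 2710) and 1099 on day 14 (528 to 1614), and their sum was higher on day 14 in 1 of 15 animals. All 4 were called down. In the list of MHC class II genes 5 of 11 were down and none of the 11 fold changes was above 0 (median log2FC −0.29). CIITA, the coactivator that switches this family on, went from a median of 7.52 to 4.34 scaled FPKM (log2FC −0.79, SE 0.17, adjusted p = 0.0051, lower in 14 animals). MHC-DOB (−0.50) and CD74, the invariant chain (−0.49), fell as well, and 2 of the 11 were down with the RNA integrity number. Reads of MHC genes are hard to assign, since the genes are near copies and vary between animals.

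Of 29 tested B cell genes, 23 were down and 0 up, with a median log2FC of −0.60, and with the RNA integrity number 17 were called down at a median of −0.59. With any 1 animal left out, between 22 and 24 were called down, and without animals 4 and 8 it was 23. FCER2, the low-affinity IgE receptor CD23 of mature B cells, had the lowest p-value of all genes with a symbol. It lay between 3.02 and 13.2 scaled FPKM on day 3 (median 7.46) and between 1.95 and 8.41 on day 14 (median 4.02), and was lower in 15 of 15 animals (log2FC −0.89, SE 0.10, adjusted p = 0.00114). FCRL1, an Fc receptor-like protein of B cells, went from a median of 47.3 (22.2 to 105) to 24.6 (12.4 to 44.4), again lower in 15 of 15 (log2FC −0.96, SE 0.12, adjusted p = 0.00114). TNFRSF13C, the BAFF receptor on which B cell survival rests, fell from a median of 3.96 to 2.17 (log2FC −1.18, SE 0.20, adjusted p = 0.00217, lower in 15 animals), and PAX5, which holds B cell identity, from 2.19 to 1.18 (log2FC −1.12, SE 0.16, adjusted p = 0.00142, lower in 14). The day 0 medians of these 4 genes were 6.9, 50.6, 3.66 and 2.75 scaled FPKM, close to or above those of day 3. MS4A1, which encodes CD20, was not called (log2FC −0.21, SE 0.12, adjusted p = 0.206), while CD79A and CD79B, the signalling chains of the B cell receptor, were (−0.68 and −0.41). RAPGEF5, ZDHHC23 and XKRX, on no list, were among the 5 falls with the lowest p-values, with log2FC of −0.88, −0.74 and −0.82.

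Plasma cells are the antibody-secreting end of the B cell lineage, and PAX5 is switched off as they form. Of 21 tested genes 7 were up and 1 down (median log2FC 0.22). Without TMM 2 were up and 3 down at a median of −0.12. IGJ, the joining chain of IgA and IgM, rose from a median of 95.1 (23.2 to 216) to 245 (65.6 to 569) scaled FPKM and was higher in 13 of 15 animals (log2FC 1.49, SE 0.25, adjusted p = 0.00207, and 0.0294 with the RNA integrity number). TNFRSF17, the receptor BCMA of plasma cells, rose from 2.13 to 5.04 in the median (log2FC 1.22, SE 0.21, adjusted p = 0.00217, 13 animals), and ELL2, an elongation factor that plasma cells need for secreted antibody RNA, had a log2FC of 0.57 (adjusted p = 0.0338, and 0.138 with the RNA integrity number). The log2 difference of ELL2 was 0.97 to 2.38 in animals 8, 9, 12, 14 and 15 and −0.31 to 0.59 in the rest. The former were among the animals with high medians of the heme list, as was animal 3 (0.42). The part of red cell RNA in the rise of ELL2 was not tested. POU2AF1, which acts in B cells as well as plasma cells, was the 1 member that fell (−0.68, adjusted p = 0.00238). With the RNA integrity number 2 were up and 1 down, at a median of 0.06. The falls numbered 3 without animal 6 and 2 without animal 7 or 11.

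Of 29 tested cytotoxic and natural killer genes, 14 were up and 1 down, with a median log2FC of 0.34 that was −0.01 without TMM, where 6 were up and 3 down. With the RNA integrity number 9 were up, and leaving out single animals left 12 to 14. GZMA, a granule protease of killer lymphocytes, lay between 5.29 and 47.5 scaled FPKM on day 3 (median 22.5) and between 22.3 and 120 on day 14 (median 45), and was higher in 14 of 15 animals (log2FC 1.33, SE 0.18, adjusted p = 0.00124). GZMH went from a median of 128 (44.2 to 238) to 249 (81.4 to 526), higher in 15 of 15 (log2FC 0.80, SE 0.11, adjusted p = 0.00135). Granzymes are a family of related genes, which may share fragments. KLRB1, the lectin receptor CD161, had a log2FC of 0.86 (adjusted p = 0.00671). IL18RAP, a subunit of the receptor for interleukin 18, was the 1 member that fell (−0.50, adjusted p = 0.0487), and it was called in the sets without animals 1, 7 or 11 and not in the other 12, nor without animals 4 and 8. The markers NKG7, PRF1, KLRD1 and GZMB, divided by the TMM factor, summed to a median of 530 CPM on day 3 (252 to 996) and 820 on day 14 (345 to 1672). This scaled sum was higher in 14 animals, and the sum without the factor was not compared.

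The T cell list had 6 of 33 up, 1 down and a median log2FC of 0.00 (−0.35 without TMM, where 0 were up and 16 down). CD3D, a chain of the T cell receptor complex, had a log2FC of 0.55 (SE 0.14, adjusted p = 0.0127), CD2 of 0.36 and TRAT1 of 0.35, the last being −0.003 without TMM. TCF7, a factor of naive T cells, fell (−0.57, adjusted p = 0.0314). Without animal 2, 8, 9 or 14 its log2FC was −0.50, −0.45, −0.51 or −0.57 and no longer called, and there were 2 falls without animal 6 or 15 and 0 without animals 4 and 8. None of the 33 was called with the RNA integrity number. The 4 T cell markers, divided by the TMM factor, summed to a median of 237 CPM on day 3 (149 to 351) and 284 on day 14 (235 to 409). Their scaled sum was higher in 14 of 15 animals. Without that factor CD3D and CD2 had mean CPM of 69.3 and 67.1 on day 3 and 77.9 and 67.4 on day 14. Of the 4 markers, 3 were called up. CD3E, the other one, had a log2FC of −0.21 (SE 0.14, adjusted p = 0.273). The difference between these chains was not tested. CD52, a small surface glycopeptide of lymphocytes, rose from a median of 1638 (563 to 7077) to 4996 (1422 to 11961) scaled FPKM and was higher in 14 of 15 animals (log2FC 1.62, SE 0.31, adjusted p = 0.00311). Its log2 difference was 2.37 to 4.21 in animals 3, 8, 9, 12, 14 and 15, the animals with the high medians of the heme list, and −0.20 to 1.67 in the other 9, and the part of red cell RNA in this rise was not tested. Of 19 basophil and eosinophil genes 1 was up and 0 down: FCER1A, the alpha chain of the high-affinity IgE receptor (log2FC 0.76, adjusted p = 0.0191, higher in 14 animals). The rises numbered 4 without animal 6 and 2 without animal 15, the falls 3 without animal 2, and without TMM 0 were up and 5 down.

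**Figure D4:**
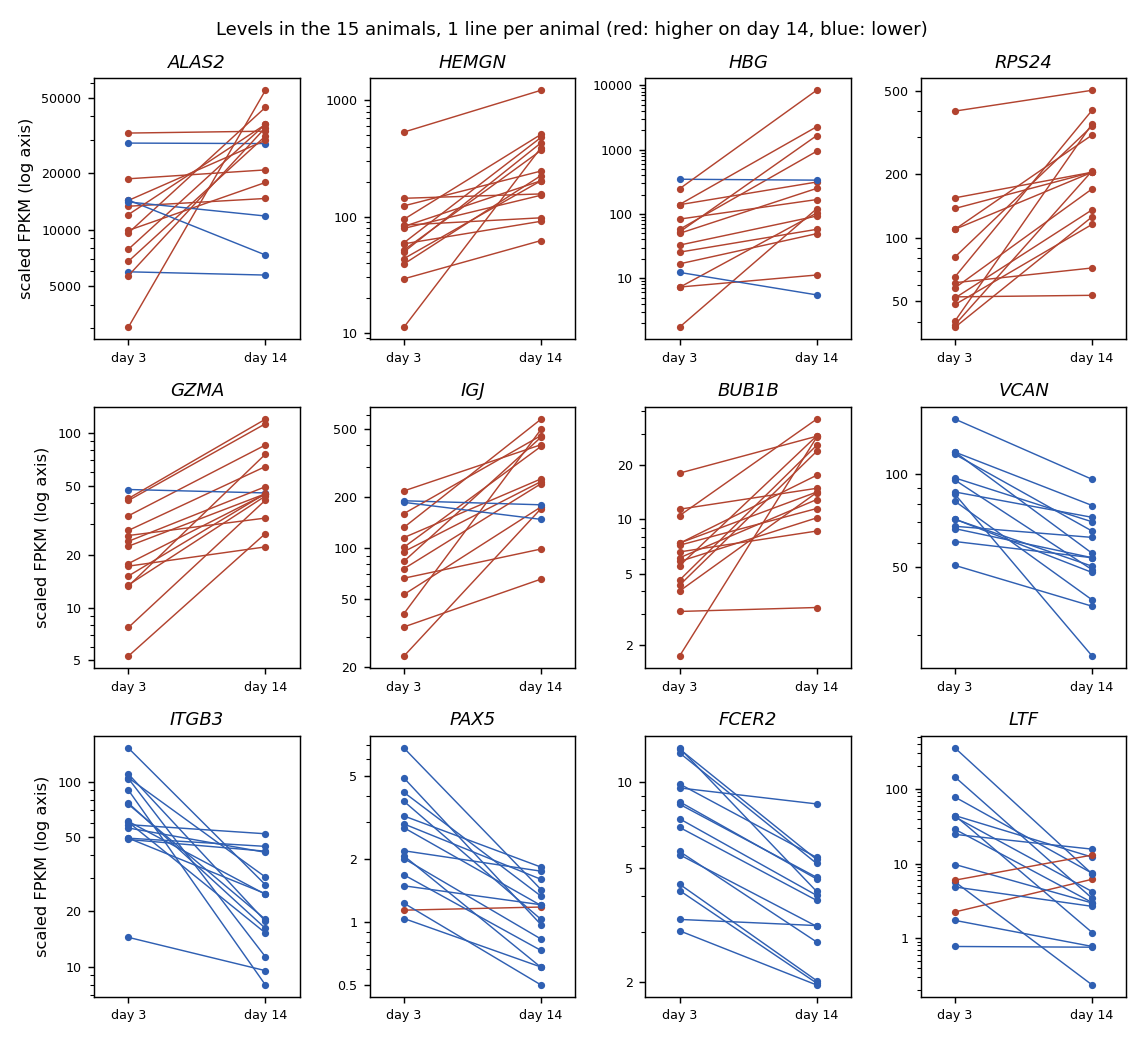
Scaled FPKM (log axes) of 12 genes on day 3 and day 14, with 1 line per animal, red where the value was higher on day 14 and blue where it was lower. HEMGN, RPS24 and BUB1B were higher in 15 of 15 animals, VCAN, ITGB3 and FCER2 were lower in 15 of 15, and ALAS2 was higher in 11.

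Mitosis depends on kinetochore proteins that attach chromosomes to the spindle, on motor proteins and on checkpoint kinases, and 43 of 63 such genes were up and 0 down, with a median log2FC of 0.57 (0.24 without TMM, where 25 were up and 3 down). The fit with the RNA integrity number called 18 up, and without animals 4 and 8 there were 37. NDC80, a kinetochore subunit, had the lowest p-value of all rises of genes with a symbol. It lay between 0.926 and 2.71 scaled FPKM on day 3 (median 1.68) and between 1.97 and 4.48 on day 14 (median 2.99), and was higher in 14 of 15 animals (log2FC 0.83, SE 0.11, adjusted p = 0.00124). BUB1B, a kinase of the spindle checkpoint, rose from a median of 6.12 to 14.9 (log2FC 1.40, adjusted p = 0.00229), and MELK, a mitotic kinase, from 1.15 to 3.12 (log2FC 1.21, adjusted p = 0.00207), each in 15 of 15 animals. The log2 difference of BUB1B was 1.77 to 3.96 in animals 3, 8, 9, 12, 14 and 15 and 0.07 to 1.24 in the rest. The former had the high medians of the heme list, and the part of red cell precursors in this rise was not tested. SPC25, another kinetochore subunit, had a log2FC of 1.22. Of 37 genes of DNA replication 14 were up and 0 down (median log2FC 0.33, and −0.01 without TMM, where 5 were up and 8 down), led by POLE2, a subunit of polymerase epsilon (1.41, SE 0.21, adjusted p = 0.00168), PRIM1, the primase (1.13), and TYMS, which makes thymidylate (1.08). The count was 9 without animal 3 or animal 9, and 5 with the RNA integrity number. Stem and progenitor genes had 2 of 19 up, SPINK2 (0.56) and LYL1 (0.53), and 2 down, MPO and RUNX1 (−0.33). Leaving out animal 4, alone or with animal 8, gave 4 falls, and 1 rise was lost when any 1 animal other than 6, 10, 11 or 13 was left out. Without TMM 0 were up and 7 down, and with the RNA integrity number 1 was up and 0 down.

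All 73 tested cytosolic ribosomal protein genes had a fold change above 0, 50 of them called up and 0 down, with a median log2FC of 0.53 (0.17 without TMM, where 17 were up and 1 down). RPS24, a small subunit protein, went from a median of 61.3 (37.7 to 400) to 205 (53.4 to 502) scaled FPKM and was higher in 15 of 15 animals (log2FC 1.34, SE 0.22, adjusted p = 0.00207). RPL31 (1.02) and RPL34 (0.98) followed. Of the 73, 5 were called with the RNA integrity number, and without animals 4 and 8 it was 36. Ribosomal protein genes have many processed copies in primate genomes, so their fragments may be split between copies. Of 74 subunits of oxidative phosphorylation 42 were up and 0 down (median log2FC 0.38, 0.03 without TMM, where 19 were up and 8 down), led by ATP5E (1.40), COX7B (1.35) and NDUFA2 (1.31), with 11 left with the RNA integrity number and 28 without animals 4 and 8. The log2 difference of ATP5E was 1.51 to 4.30 in animals 3, 8, 9, 12, 14 and 15 and −0.45 to 1.16 in the rest. The former had the high medians of the heme list, and the part of red cell RNA in this rise was not tested. Proteasome subunits had 18 of 46 up and 1 down, with a median log2FC of 0.19 that was −0.16 without TMM, where 5 were up and 8 down. Among them were PSMD9 (1.11), PSMC2 (0.94) and PSMD10 (0.92), against PSME3 (−0.29), an activator subunit of the nucleus. Mitochondrial ribosomal proteins had 19 of 73 up and 0 down, with a median of 0.19 that was −0.16 without TMM, where 1 was up and 11 down. The rises were led by MRPL33 (0.67), MRPL13 (0.63) and MRPL51 (0.60). Of these lists, 6 proteasome and 5 mitochondrial ribosomal genes were up with the RNA integrity number.

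In the list of stress hormone genes more members fell than rose. Glucocorticoids act through the receptor NR3C1, which induces feedback regulators such as FKBP5 and TSC22D3, and quarantine is used as a model of psychosocial stress. Of 35 tested genes of the receptor and its targets, 10 were down and 3 up (median log2FC −0.18). The 3 named here with the lowest values were CD163, given above, MAOA, which breaks down serotonin and noradrenaline (−0.65, adjusted p = 0.0106), and NR3C2, the mineralocorticoid receptor, which went from a median of 2.84 (1.74 to 4.38) to 1.93 (1.15 to 3.81) scaled FPKM and was lower in 15 of 15 animals (log2FC −0.57, SE 0.10, adjusted p = 0.00207, and 0.0292 with the RNA integrity number). The rises were MT1X, a metallothionein (0.60, higher in 15 of 15 animals), HSP90AA1, a chaperone of the receptor (0.55), and ANXA1 (0.52). Of 3 genes chosen after their values were seen, FKBP5 fell (−0.44, SE 0.10, adjusted p = 0.00842, lower in 14 animals), while NR3C1 (−0.02, SE 0.09, adjusted p = 0.877) and TSC22D3 (−0.03, SE 0.10, adjusted p = 0.856) were not called. Without TMM both NR3C1 (−0.38, limma adjusted p = 0.0365) and TSC22D3 (−0.38, adjusted p = 0.0264) were called lower. The 10 falls were 6 without animal 3, without animal 9 or without animals 4 and 8. With the RNA integrity number 3 were down and 0 up, with adjusted p = 0.0759 for MT1X, 0.143 for HSP90AA1 and 0.0913 for ANXA1. Without TMM 0 were up and 28 down. In the circadian clock list 4 of 22 were down and 1 was up (median log2FC −0.08), with PER2 (−0.65), NR1D1 (−0.45) and CRY2 (−0.31) falling. The 1 rise was lost without animal 9 or without animals 4 and 8, and without TMM 0 were up and 11 down. The fit with the RNA integrity number called 0 up and 1 down, with adjusted p = 0.086 for PER2 and 0.167 for NR1D1.

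Of 49 genes of cytokines and NF-kB signalling 10 were down and 0 up (median log2FC −0.14), and without TMM 31 were down. The falls were led by NLRC4, an inflammasome sensor (−0.73), IL18RAP, and IRAK3, which dampens Toll-like receptor signals (−0.48). The count was 6 without animal 3 or without animals 4 and 8, 16 without animal 7 and 1 with the RNA integrity number. Immediate early genes, which respond within minutes to handling, had 1 of 30 up, RGS1 (0.49, adjusted p = 0.0207), and 0 down (median log2FC −0.12), which became 2 up without animal 13. Without animal 7 there were 6 falls, without TMM 0 were up and 13 down, and with the RNA integrity number none was called. Type I interferon-stimulated genes had 3 of 41 up and 0 down (median log2FC −0.08): CMPK2 (1.25), IFIT1 (0.72) and IFI27 (0.42). Without TMM 1 was up and 15 down, without animal 7 there were 3 falls, and with the RNA integrity number none was called. The interferon list differed between animals more than the counts show, with medians from −1.03 in animal 2 to 1.06 in animal 7, and 1 was up without animal 3 or without animals 4 and 8. The log2 difference of CMPK2 was 2.04 to 4.14 in animals 3, 8, 9, 12, 14 and 15 and −0.26 to 0.77 in the rest. The former had the high medians of the heme list, and the part of red cell RNA in this rise was not tested. Glycolysis genes had 9 of 33 down and 2 up (median log2FC −0.19). The falls were led by PFKFB4 (−0.61), which sets the level of the activator of phosphofructokinase, HK2 (−0.54) and PKM (−0.54), the last enzyme of the path. The rises were BPGM and LDHB (0.26), which was −0.09 without TMM, and 1 of these rises was lost without any 1 of animals 1, 2, 3, 8, 9, 11, 12, 13 or 14. Without TMM 1 glycolysis gene was up and 24 were down, and with the RNA integrity number 0 were up and 2 down, with adjusted p = 0.0771 for PKM and 0.184 for LDHB.

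Among stress and survival pathways the changes were mixed. The growth arrest and integrated stress response list had 6 of 40 up and 4 down (median log2FC −0.03), and 4 up and 20 down without TMM (median −0.38). GADD45A, a stress-inducible regulator of growth arrest, rose from a median of 45.8 (12.3 to 129) to 150 (44.9 to 320) scaled FPKM and was higher in 14 of 15 animals (log2FC 1.66, SE 0.29, adjusted p = 0.00208). EIF2AK1, the heme-regulated kinase that matches globin synthesis to heme supply in red cell precursors, had a log2FC of 1.33 and SESN3 of 1.04. CDKN1A (−0.36), an inhibitor of the cell cycle, and EIF2AK4 (−0.25), a sensor of amino acid shortage, fell. The falls numbered 7 without animal 6, 8 without animal 7, 2 without any 1 of animals 2, 8, 9, 12 or 14, and 1 without both animals 4 and 8. Heat shock chaperones had 8 of 32 up and 2 down, with a median of 0.10 that was −0.25 without TMM, where 1 was up and 11 down, and DNAJB4 had the largest log2FC, 1.16. The log2 difference of DNAJB4 was 1.59 to 3.93 in animals 3, 8, 9, 12, 14 and 15 and −0.73 to 1.29 in the rest. The former had the high medians of the heme list, and the part of red cell RNA in this rise was not tested. HSPB1, named after its value was seen, and HSPA1B were the 2 falls (−0.58 and −0.38). Neither was called without animal 2, 3, 4, 9, 13 or 15, and 1 fall remained without animal 7 or 10. Apoptosis genes had 5 of 32 up and 4 down (median 0.04, −0.31 without TMM, where 1 was up and 13 down), with the falls of BMF (−0.63), BCL2 (−0.37) and BCL2L11 (−0.29), and 2 falls without animal 9, 12 or 14 or without both animals 4 and 8. Core autophagy genes had 7 of 37 up and 4 down (median 0.06, −0.29 without TMM, where 1 was up and 17 down), with GABARAPL2 (1.13), ATG4A (0.60) and ATG14 (0.59) rising and ATG9A, ATG7 (−0.39) and TFEB (−0.33) falling. Their rises were 3 or 4 without any 1 of animals 2, 3, 8, 9, 12, 14 or 15. Receptors of blood formation had 9 of 26 down and 1 up, the leptin receptor LEPR (0.80), with falls of the activin receptor ACVR1B (−0.51), BMPR2 (−0.43) and CSF1R (−0.41), and 4 falls without animals 4 and 8. With the RNA integrity number the rises and falls numbered 0 and 1 for heat shock, 2 and 1 for growth arrest, 1 and 0 for apoptosis, 0 and 1 for autophagy and 0 and 2 for the receptors.

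Several of the largest single changes lay outside these groups. GIPC2, a protein with a PDZ domain, went from a median of 1.37 (0.396 to 7.82) to 9.93 (0.822 to 31.1) scaled FPKM and was higher in 15 of 15 animals (log2FC 1.89, SE 0.30, adjusted p = 0.00184). ERICH2 rose in 15 of 15 animals from 1.7 to 6.35 (log2FC 1.77, SE 0.25, adjusted p = 0.00135), and IFT20, a transport protein of cilia, in 15 of 15 from 9.93 to 23.4 (log2FC 1.35, SE 0.19, adjusted p = 0.00135). GPCPD1, which breaks down glycerophosphocholine, rose from 193 to 781 (log2FC 1.67), NOSTRIN, which binds nitric oxide synthase, from 19.8 to 86.1 (1.63), TRIM59, a TRIM family protein, from 14.9 to 49.5 (1.61) and THG1L, which edits histidine tRNA, from 18.8 to 46.8 (1.61), each in 15 of 15 animals. ADIRF (1.81), PAGE1 (1.73), TMA7 (1.61) and NEIL3, a DNA glycosylase (1.60), were also among the 15 largest rises of genes with at least 5 CPM and the same direction in at least 13 animals. These 11 genes remained called with the RNA integrity number, with adjusted p from 0.021 for ERICH2 to 0.0454 for PAGE1. Among the falls outside the lists were FN1, fibronectin, from a median of 29.6 (10.6 to 95) to 10.8 (7.4 to 34) scaled FPKM (log2FC −1.36, SE 0.26, adjusted p = 0.00342, lower in 13 animals), SEPT5 (−1.08), SORT1, a sorting receptor (−1.05), and DYSF, dysferlin, which repairs membranes (−1.01). SORL1 (−0.46) and PLBD1 (−0.34) were among the genes that lost most CPM. AHNAK lost most CPM but was not called (log2FC −0.25, SE 0.10, adjusted p = 0.0765).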

How the data were processed

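Whole-blood RNA of 15 vervet monkeys was sequenced as stranded, ribosome- and globin-depleted paired-end libraries, and 30 libraries (day 3 and day 14, 15 each) were compared. Per the labels and the study's methods, the authors mapped reads with STAR, counted fragments with HTSeq against Chlorocebus_sabeus 1.1 and deposited FPKM per gene and sample. Base calling used bcl2fastq 2.17 according to the submitters' processing notes, and other versions are not given in the sources used here. Fragment numbers were recovered from the deposited FPKM: 1011768 of 1011768 values above 0 lay within 0.02 of a whole number.

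FPKM were divided by TMM factors, and log2(value + 0.1) was tested with limma 3.58.1 in R 4.3.3 (day plus animal as block, two-sided, Benjamini-Hochberg adjustment) over 18753 genes with more than 0.5 CPM in at least 3 of the 45 libraries. A fold change on this scale understates the change of low genes. Tables and sign-flip tests were computed in Python 3.11.15, and the fit was tested on simulated data. The pairing comes from the animal numbers in the labels: deviations from the day means of the 2 samples of an animal correlated with a median r of 0.359 (lowest 0.018, highest 0.583), against −0.025 for samples of different animals. RNA integrity numbers, taken from the study's supplementary information, served only as a covariate. Each replicate is a separate animal.

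The members and gene lists were chosen with earlier results of these data known, so the lists were counted and not tested. Named genes had a symbol, were called, had at least 5 CPM and moved alike in at least 13 animals, and were the 15 largest rises, the 15 largest falls and the 5 lowest p-values each way. Up to 3 called members of each list and direction (at least 1 CPM), listed globin genes, fixed cell markers, and the 10 genes with the largest gain and the 5 with the largest loss in CPM were added. Some of the genes under this rule are not reported here. Of 17250 LOC identifiers, 825 were given a symbol through RefSeq names of another assembly (mChlSab1.0.hap1), without coordinates. Alternatives covered the block, samples, pseudocount, scaling, filter, RNA integrity, test and single animals, and the set without animals 4 and 8 was added after the data were seen.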

Additional observations from a re-analysis of the deposited data

How the results depend on the processing

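Without the replicate block, that is without the pairing of samples by animal, 2840 genes were called (1306 up and 1534 down). Without TMM 9211 were called (965 up and 8246 down), 150 of the rises and 364 of the falls being at least 2-fold. When library totals left out the 20 most abundant genes, 1444 were up and 5361 down (252 and 179 at least 2-fold), and the median log2FC of the heat shock (−0.10), apoptosis (−0.15), autophagy (−0.13), T cell (−0.19), proteasome (−0.00) and mitochondrial ribosomal (−0.01) lists turned below 0. With the RNA integrity number 914 were called (528 up and 386 down), of which 237 changed at least 2-fold (206 up and 31 down). A pseudocount of 1 gave 295 changes of at least 2-fold (280 up and 15 down) and one of 0.01 gave 169 falls of that size. There were 24 such falls among genes of at least 5 CPM and 208 with limma-voom on the recovered fragments. Leaving out 1 animal at a time gave 3344 to 5452 called genes, 1705 to 2508 up, 1639 to 2944 down, and 337 to 605 changed at least 2-fold, with 268 to 517 rises and 49 to 95 falls of that size. Without animals 4 and 8, 1670 were down. Median-of-ratios scaling gave 2596 up and 2016 down, so that rises outnumbered falls. The counts with median-of-ratios scaling, the fit to all 45 samples, no filter on low values and an intensity trend stayed within 1.5 times those reported. Where the construction of an alternative does not give the cause, the cause was not tested.

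Among the genes given with values, LDHB (−0.0923) and TRAT1 (−0.0029) turned negative without TMM. Of the genes that were not called, NR3C1 turned positive with median-of-ratios scaling (0.0065) and without replicate 6, 12, 14 or 15, leaving out 1 animal giving −0.0743 to 0.0063. TSC22D3 turned positive with the same scaling (0.0018) and without replicate 12 or 14, leaving out 1 animal giving −0.0760 to 0.0096. In all other settings the named genes kept their direction. Of their values under the alternatives, 376 were no longer past the threshold, more with the RNA integrity number than in any other setting. Another 11 newly passed it, 6 of them without TMM. Among these 6 were NR3C1 (−0.3753, limma adjusted p = 0.0365) and TSC22D3 (−0.3809, adjusted p = 0.0264). At 13216275 to 31469332 fragments per library, genes under the filter were not compared.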

Other observations

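Of the tested genes, 5107 carried a LOC identifier without a symbol, and 765 of them were called up and 561 down on day 14. They are counted and not named. Basophil markers summed to a median of 65.3 CPM on day 3 (8.9 to 146) and 90.1 on day 14 (35.7 to 149), and the 2 eosinophil markers found by symbol to 5.34 (0.22 to 152) and 1.57 (0.171 to 13.8). None of these 5 markers was called by limma.

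Animals differed in how many genes moved. In animal 8 there were 3213 genes at least 2-fold higher and 3193 at least 2-fold lower on day 14, and in animal 10 there were 175 and 394.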
